A study of Mus musculus with 4 samples.

Results

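The 5S ribosomal RNA genes on mouse chromosome 8 and the Rn4.5s RNA genes on chromosome 6 are tandem repeats, and 299 of the 29255 peaks in 4 ChIP-exo lists lay in windows of 200 kb around them. ChIP-exo trims the isolated DNA with an exonuclease up to the crosslinked protein, which places binding finely. The peaks were chosen by position: a centre in chr8:123500001-123700000 or in chr6:47600001-47800000 of mm10. Both windows were picked because earlier work on these lists had shown many peaks there, so the peak numbers are a description and carry no test. All libraries came from D3 mouse embryonic stem cells, with 1 library per group and no replicate. An anti-Sox2 antibody recovered the endogenous protein, and HaloLink resin recovered 3 HaloTag fusions: Halo-Sox2, Halo-Sox2M (labelled with the changes M47G, F50 and M51G) and Halo-Sox2D (Sox2 residues 1 to 120). A library made from resin alone was not used here. The labels do not give how the fusions were expressed.

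5S rRNA is a small RNA of the large ribosomal subunit, and RNA polymerase III transcribes its genes from control elements that lie inside them. Rn4.5s RNA is another short polymerase III product, known from rodents, whose genes also stand in tandem. Sox2 is an HMG-box transcription factor of pluripotent cells that binds DNA together with Oct4. Copies of such repeats are nearly alike in sequence, so that a read can match several of them. How the authors placed such reads is not given in the sources used here, and peaks at several copies may therefore rest on the same reads. How far this moved the numbers was not tested. The lists hold positions without read numbers, so the height of a peak and the depth of a library are unknown.

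The likeness of the copies can be read from the chromosome 6 sequence. RefSeq gives 300-base windows, from 250 bases before to 50 after an annotated start, for several predicted genes of this array (GRCm38.p6, whose chromosomes have the coordinates of mm10). The windows of Gm40369 (its start at the upper position), Gm40367, Gm36327 and Gm40364 were identical over all 300 bases. That of Gm52861, on the far side of a stretch without peaks, differed from them by 4 single-base edits. The window of Gm40367 (chr6:47662342-47662641, plus strand) and that of Gm52861 (chr6:47738587-47738886, plus strand) are shown because they mark the same place in different repeat units. Capitals mark the bases that do not belong to the long runs both share.
Gm40367: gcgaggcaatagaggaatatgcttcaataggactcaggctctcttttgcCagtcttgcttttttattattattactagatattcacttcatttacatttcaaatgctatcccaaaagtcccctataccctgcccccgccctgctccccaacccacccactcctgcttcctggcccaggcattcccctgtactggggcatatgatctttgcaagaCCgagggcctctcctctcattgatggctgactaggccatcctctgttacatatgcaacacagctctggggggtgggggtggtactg
Gm52861: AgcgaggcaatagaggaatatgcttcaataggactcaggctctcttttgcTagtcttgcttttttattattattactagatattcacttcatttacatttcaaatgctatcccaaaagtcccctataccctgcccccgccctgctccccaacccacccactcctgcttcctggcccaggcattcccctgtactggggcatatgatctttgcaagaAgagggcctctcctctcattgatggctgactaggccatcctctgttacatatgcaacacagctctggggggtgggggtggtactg

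A run of 100 bases from the Gm40367 window occurred in these 5 of the 32851 promoter windows of the table and in no other. In order along the chromosome, the starts of these 5 windows were 8600, 12990, 4325 and 58930 bp apart. All but the last of these distances lie close to multiples of the 4328.5 bp by which groups of peaks followed each other. The last spans the stretch without peaks and is not close to a multiple. No peak of any library lay inside a window. Neither CATTGT nor CTTTGT, short core sequences of Sox factors, was found in the Gm40367 or the Gm52861 window on either strand. These letters occurred in 12.6% and 18.7% of all promoter windows, so most windows lack them. The sequence under the peaks, which lie outside these windows, was not searched. Gm40369 (its start at the lower position) and Gm52862 shared another run of 38 bases, printed because it may mark a second place of the unit. Whether it recurs at a fixed place of the unit was not tested. It lies at chr6:47652664-47652701 and chr6:47755278-47755315.
Gm40369 and Gm52862: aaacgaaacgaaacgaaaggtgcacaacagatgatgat

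The Halo-Sox2M list held more peaks in both windows than any other list, although it was the shortest. This did not hold within 2 kb of the 1 annotated Rn4.5s gene, where it had 5 peaks against 6 of Halo-Sox2. In the 5S window it had 101 peaks, against 2 of endogenous Sox2, 2 of Halo-Sox2 and 2 of Halo-Sox2D. These were 5.90% of the 1711 Halo-Sox2M peaks (95% Wilson interval 4.88 to 7.12%, covering counting error only). In the other lists they were 0.0280%, 0.0305% and 0.0145%. The Rn4.5s window held 90 Halo-Sox2M peaks (5.26%, 4.30 to 6.42%), 71 Halo-Sox2 peaks (1.08%, 0.859 to 1.36%), 22 Halo-Sox2D peaks (0.159%, 0.105 to 0.241%) and 9 endogenous Sox2 peaks (0.126%, 0.0662 to 0.239%).

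The numbers of tagged-protein peaks stood in different ratios in the arrays. There were 50.5 times as many Halo-Sox2M as Halo-Sox2 peaks in the 5S window (exact 95% interval of the ratio 13.6 to 422.7) and 1.27 times as many in the Rn4.5s window (0.918 to 1.76). Outside both windows the ratio was 0.234 (0.222 to 0.248). For Halo-Sox2D the ratio to Halo-Sox2 was 0.310 in the Rn4.5s window (0.183 to 0.506), against 2.13 outside both (2.07 to 2.19). With 1 library per group these ratios compare libraries, not conditions. The windows end away from the dense peaks: the outermost 5S peak at the lower edge, a Halo-Sox2M peak, lay 38.7 kb inside, and the nearest peak beyond that edge, of endogenous Sox2, lay 45.9 kb outside. On the upper side a Halo-Sox2D peak lay 11.97 kb inside and a Halo-Sox2 peak 20.9 kb outside. In the Rn4.5s window the outermost peaks were of endogenous Sox2, 8.48 kb inside the lower edge and 11.9 kb inside the upper edge, and the nearest beyond were Halo-Sox2D peaks, 152.1 kb and 13.6 kb outside.

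**Figure D1:**
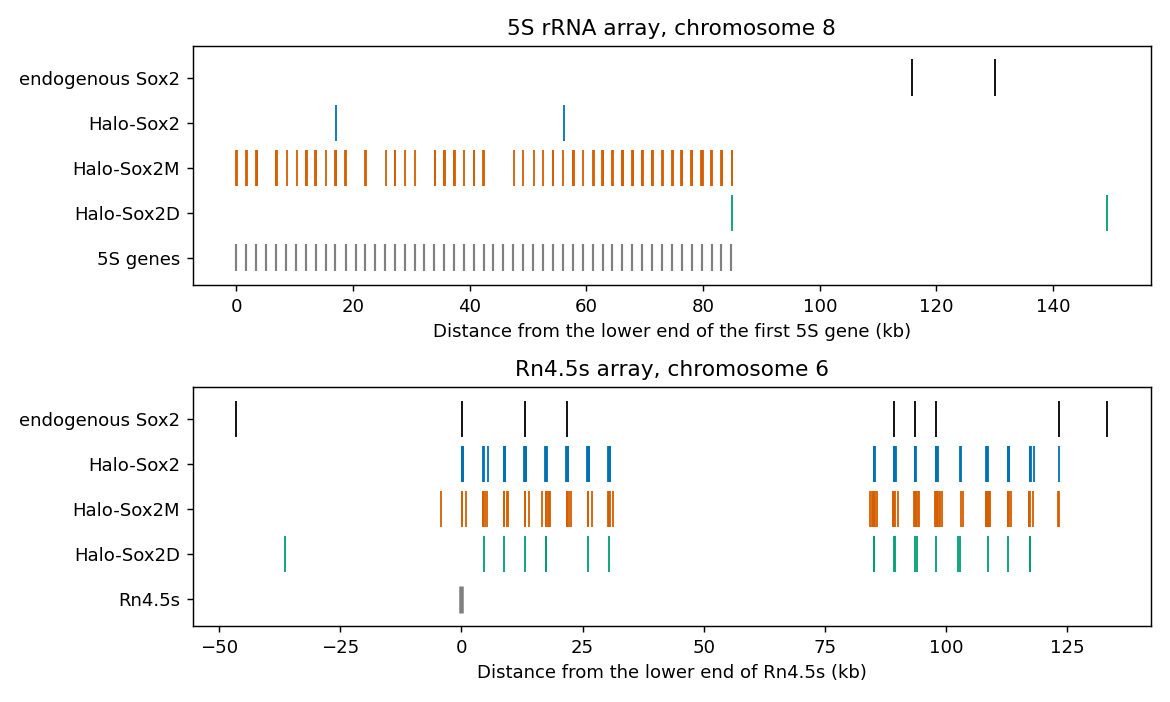
Peaks of each library (vertical bars) along the 5S array (top; x axis, kb from the lower end of the first 5S gene) and the Rn4.5s array (bottom; kb from the lower end of Rn4.5s), with annotated repeat genes in grey. The 101 Halo-Sox2M peaks follow the 51 gene models of the 5S array, while Halo-Sox2 and Halo-Sox2M both recur along the Rn4.5s array on either side of a stretch of 53.0 kb without peaks.

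The 5S array comprised 51 annotated gene models, 48 of them rRNA genes and 3 pseudogenes, spread over 84.96 kb of chromosome 8 from n-R5s100 (123538784 to 123538904) to Gm23647 (123623637 to 123623745). Neighbouring upper ends lay 1665 to 1727 bp apart (median 1697.5 bp). The gene table gives no strand, so ends are called lower and upper by coordinate. Lengths were 121 bases for 32 models, all with a curated RefSeq transcript, and 119 bases for 17, of which 16 have a predicted transcript. Distances below are counted from the upper end of a model. They and the peak widths assume list starts counted from 0, which no source used here states. If starts were counted from 1, every start would lie 1 bp lower and every peak would be 1 bp wider, and no peak would be a single base wide.

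A Halo-Sox2M peak lay within 500 bp of 45 of the 51 models (88.2%, 76.6 to 94.5%), where 1.15% of all 49997 RefSeq genes and 2.31% of the 3810 genes of at most 130 bases had such a peak. The windows were chosen for their peaks, so nothing is read from that contrast. All 101 Halo-Sox2M peaks of the window belonged to these models, and no centre was more than 42.5 bp from the nearest gene body. Inside a gene body lay 44 centres (43.6%, 34.3 to 53.3%), and gene bodies make up 3.06% of the window. A centre lay inside 34 of the 51 models, where 0.928% of all RefSeq genes held one, a share not matched for gene length. There were 13 models with 1 peak, 14 with 2, 13 with 3, 4 with 4 and 1 with 5. The 6 models without a peak were n-R5s103, n-R5s112, n-R5s114, n-R5s119, Gm24312 and n-R5s127.

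The peaks returned to the same bases of copy after copy. Sorted by distance from the upper end, and split wherever neighbouring centres were more than 5 bp apart, the 101 centres fell into 10 classes, 6 of which were found in more than 2 models. The first comprised 25 peaks of 25 models, every one of them 1 bp wide and exactly 160 bp below the upper end, which is 40 bp below the lower end of a 121-base model. The second, 6 peaks over the lower end of the gene, spanned 125 to 116 bp below the upper end. The third and commonest was inside the gene, with 28 peaks in 28 models between 85 and 70 bp below the upper end and a median width of 6.5 bp. The fourth, also inside, comprised 7 peaks that all started 43 bp below the upper end. Above the gene, 21 peaks lay 23 to 27 bp from the upper end, and 8 peaks of 16 bp each covered exactly 35 to 50 bp.

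**Figure D2:**
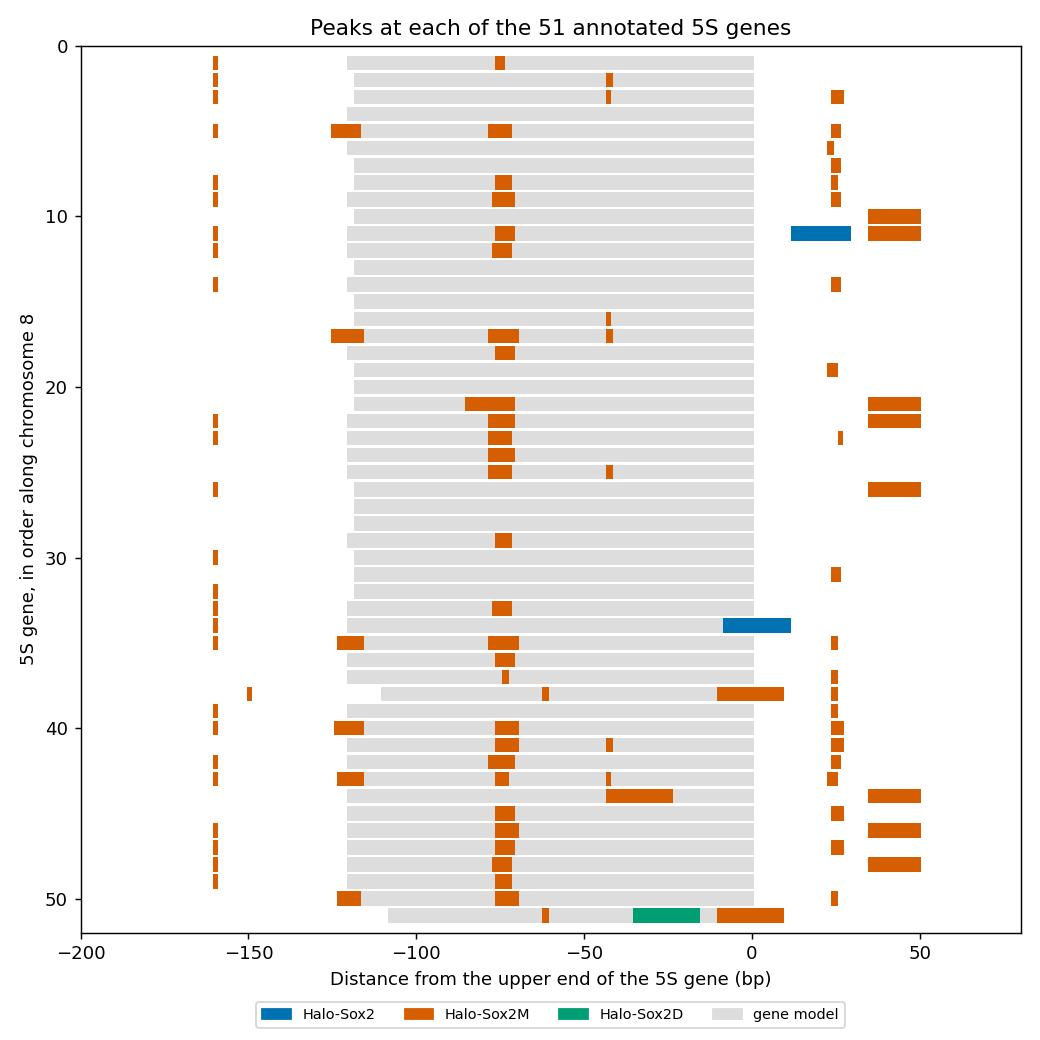
Each row is 1 of the 51 annotated 5S gene models in order along chromosome 8 (grey bar), aligned at its upper end, and coloured bars are peaks (x axis in bp; bars under 1.5 bp are drawn at that width). Halo-Sox2M peaks stand in columns, among them 25 peaks at 160 bp below the upper end and 28 peaks between 85 and 70 bp below it.

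The columns differed in how exactly they recurred. The 25 peaks of the 160-bp class had 1 start relative to the upper end, the 21 peaks just above the gene had 3, with 17 of them at 24 bp, and the 28 peaks inside the gene had 5, with 14 of them at -76 bp. Measured from the lower end, the 160-bp class lay at 40 and 42 bp, because the 119-base models begin 2 bases later. Single-base peaks were common in this array: 30 of its 101 Halo-Sox2M peaks were 1 bp wide (29.7%), against 5.61% of the whole Halo-Sox2M list and 0 of its 90 peaks in the Rn4.5s window.

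**Figure D3:**
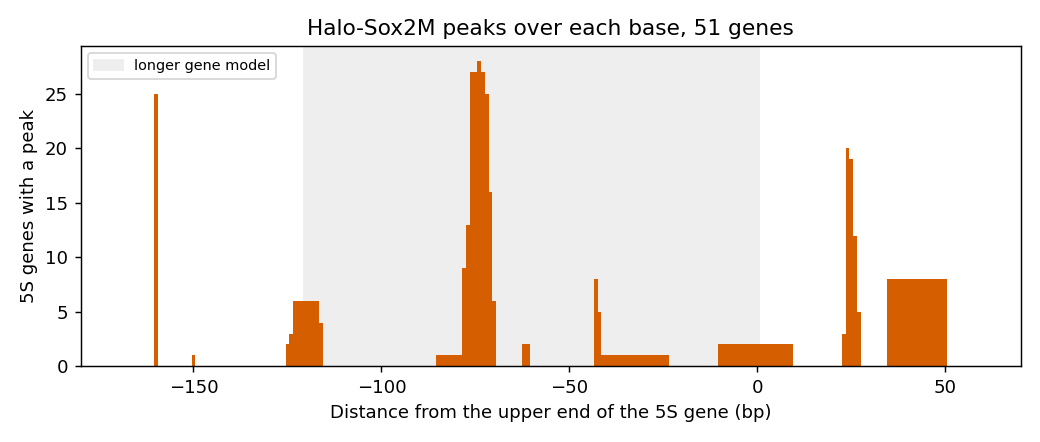
Number of 5S gene models (y axis, of 51) with a Halo-Sox2M peak over each base (x axis, bp from the upper end of the model; the 121-base model is shaded). The columns at 160 bp below the gene's upper end, inside the gene and above it are a few bases wide, apart from the block of 8 peaks from 35 to 50 bp.

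Copies differed in which of these places were occupied. The model with most peaks was n-R5s142 (123610015 to 123610135), with Halo-Sox2M peaks at 123609975, 123610012 to 123610019, 123610059 to 123610062, 123610092 and 123610158 to 123610160. It thus held 5 of the 6 recurring places. Next were n-R5s104 (123545576 to 123545696) and n-R5s134 (123596455 to 123596575), with 4 peaks each in the same 4 places: 160 bp below the upper end, over the lower end, inside, and just above. The places at 23 to 27 bp and at 35 to 50 bp above the gene, held by 21 and 8 models, were never occupied in the same model. The 160-bp place and the commonest place inside the gene were both occupied in 17 models.

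The longer, curated models had more peaks than the 119-base models. Of the 121-base models 31 of 32 had a Halo-Sox2M peak (96.9%, 84.3 to 99.4%), with a mean of 2.38 per model (median 2, range 0 to 5). Of the 119-base models 12 of 17 had a peak (70.6%, 46.9 to 86.7%), with a mean of 1.12 (median 1, range 0 to 3). The commonest place inside the gene was occupied in 26 of the 32 longer models and in 2 of the 17 shorter ones, and the place over the lower end in 6 and 0. The place at 23 to 27 bp above was occupied in 15 and 5, and that at 35 to 50 bp in 5 and 3. All 119-base models lay among the first 32 of the array, while the models after them were of 121 bases or pseudogenes. Length and position in the array were thus partly linked, although both lengths were interleaved among those first 32 models. The difference between the models was not tested.

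Pseudogene copies were occupied too. Rn5s-ps1 (123601570 to 123601680, 111 bases) had 4 Halo-Sox2M peaks, including a 1-bp peak 40 bp below its lower end, as in the full-length genes. It and Gm23647 (109 bases), the last model of the array, each had a peak of 20 bp from 10 bp below to 9 bp above the upper end, a place with no Halo-Sox2M peak in any other model. The third pseudogene, n-R5s127, is also among the 119-base models and had no peak. Away from the array, 1 of 28 dispersed n-R5s copies, 17 of them pseudogenes, had a peak of any library within 500 bp. That was n-R5s194 on chromosome 3 (4338998 to 4339116), with a Halo-Sox2M peak at 4339071 to 4339087. The peak starts 45 bp below the upper end, but without strand this place cannot be matched to a place in the array. Of all RefSeq genes of at most 130 bases, 2.31% had a Halo-Sox2M peak within 500 bp.

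The other libraries had few peaks at the 5S genes, in shares below those of all RefSeq genes, which were not matched for length. Only for Halo-Sox2D did the interval leave out the share of all genes. Every interval held the share of RefSeq genes of at most 130 bases, and the Halo-Sox2 share lay above that of these short genes. Halo-Sox2 had peaks at n-R5s110 (123555893 to 123555910, 12 to 29 bp above the upper end) and at n-R5s133 (123594864 to 123594883, over the upper end). That is 2 of 51 models, or 3.92% (1.08 to 13.2%), where 5.99% of all RefSeq genes and 1.94% of those of at most 130 bases had a Halo-Sox2 peak within 500 bp. No Halo-Sox2 centre lay inside a model, against 5.21% of all genes, a share not matched for gene length. Halo-Sox2D had a peak at Gm23647 (123623710 to 123623729), 1 of 51 models or 1.96% (0.347 to 10.3%), against 14.1% of all genes and 3.33% of the short ones. Endogenous Sox2 had none, which allows up to 7.005% of the models (Wilson), against 4.75% and 0.997%. None of these overlapped a Halo-Sox2M peak. The Halo-Sox2 peak at n-R5s110 and the Halo-Sox2D peak at Gm23647 each stopped with 5 bases left before the next Halo-Sox2M peak.

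The Rn4.5s window was organised differently, with peaks of several libraries in the same units. RefSeq annotates a single Rn4.5s gene there (47654921 to 47655094, 174 bases). Peaks of all libraries were pooled and split wherever centres were more than 1500 bp apart. Only clusters with peaks of more than 1 library were kept as groups, which left out 4 peaks that stood alone. That a group held more than 1 library was thus set by this rule. In this way 188 of the 192 peaks fell into 17 groups, 8 below and 9 above a stretch of 53.0 kb (47686130 to 47739170) without any peak. Most of that stretch lies in the predicted gene Gm40363, and whether it holds known sequence was not checked, as no genome sequence was used here. The median group spanned 1003 bp. Every group held Halo-Sox2 and Halo-Sox2M peaks, 14 held a Halo-Sox2D peak, 7 held an endogenous Sox2 peak and 4 held all 4 libraries. A group had a median of 5 Halo-Sox2M peaks (range 2 to 8), 4 Halo-Sox2 peaks (1 to 6), 1 Halo-Sox2D peak (0 to 3) and 0 endogenous Sox2 peaks (0 to 1).

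Groups followed each other at a regular distance. For each pair of neighbouring groups the shift was found at which most starts of the same library matched within 2 bp. In 12 of 15 pairs at least 3 peaks matched, with shifts of 4260 to 4407 bp (median 4328.5 bp). The most matches were 8, between groups 9 and 10. The exceptions were groups 12 and 13, 13 and 14, and 16 and 17, with 1 or 2 matches at shifts of 3785, 5283 and 5104 bp. Among pairs of peaks 1 to 14 kb apart, counted in bins of 50 bp, distances of 4300 to 4350 bp were the commonest for Halo-Sox2M (40 pairs) and for Halo-Sox2 (38 pairs). For Halo-Sox2D, distances of 4250 to 4300 bp and of 8600 to 8650 bp were equally common, with 5 pairs each.

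**Figure D4:**
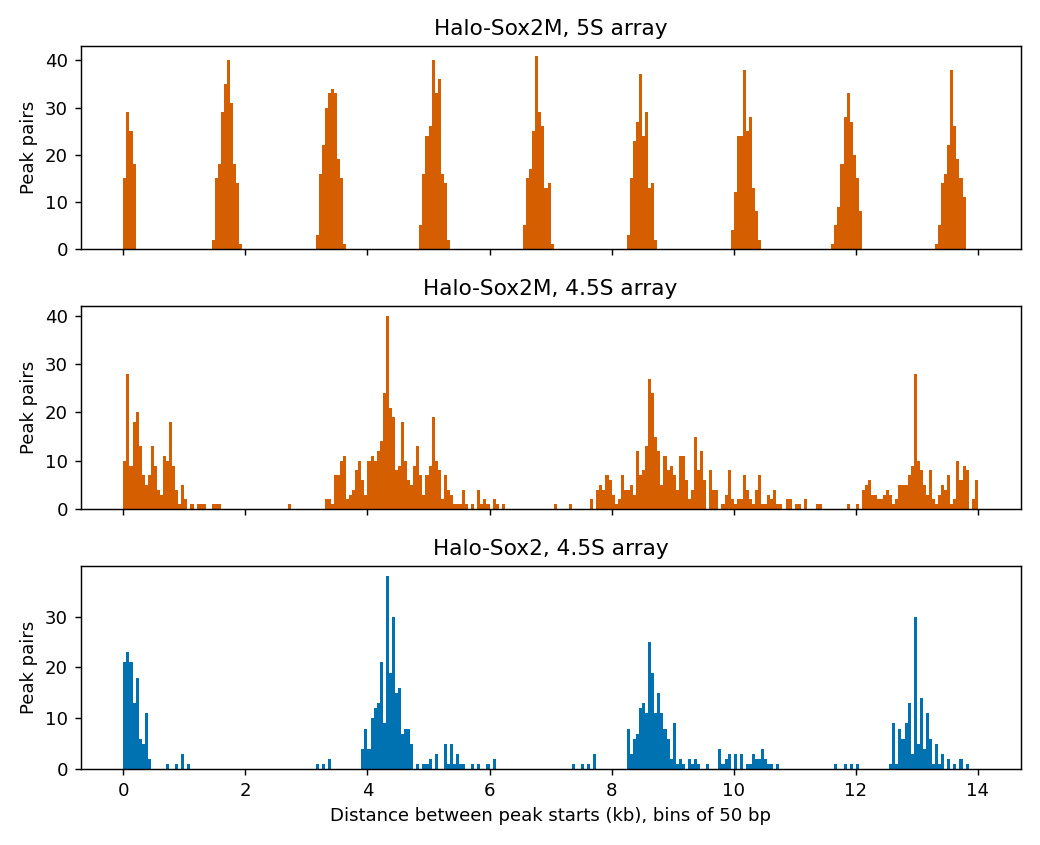
Distances between all pairs of peak starts within a library (x axis in kb, bins of 50 bp; y axis, number of pairs) in the 5S array for Halo-Sox2M and in the Rn4.5s array for Halo-Sox2M and Halo-Sox2. The 5S distances recur near multiples of the 1697.5-bp unit, and the Rn4.5s distances peak at 4300 to 4350 bp with 40 and 38 pairs.

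At Rn4.5s itself, 4 Halo-Sox2M, 6 Halo-Sox2 and 1 endogenous Sox2 peaks lay within 500 bp and no Halo-Sox2D peak. Inside the gene were Halo-Sox2 peaks at 47655006 to 47655017 and 47655020 to 47655035, and Halo-Sox2M peaks at 47655032 to 47655042 and 47655053 to 47655059. A Halo-Sox2M peak crossed the upper end (47655085 to 47655104), the endogenous Sox2 peak began 1 base above it (47655095 to 47655113), and a Halo-Sox2 peak followed (47655102 to 47655119). These last peaks overlapped in turn, each beginning higher than the one before.

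The step from a Halo-Sox2M to a Halo-Sox2 peak returned in the next units. In 7 of the 8 lower groups a Halo-Sox2 peak started 16 to 20 bp above the start of a Halo-Sox2M peak. In groups 3, 4, 7 and 8, for example, the Halo-Sox2M peaks began at 47663746, 47668082, 47681049 and 47685367, and the Halo-Sox2 peaks at 47663764, 47668099, 47681065 and 47685384. Over both parts of the array the relation found in most groups was a Halo-Sox2 peak starting 52 to 56 bp above a Halo-Sox2M start, in 14 of 17 groups. In the upper groups a Halo-Sox2 start lay 7 bp above a Halo-Sox2M start in 7 of 9. The tagged wild-type and mutant proteins had peaks in the same units, mostly at offset bases. Of the 71 Halo-Sox2 peaks, 20 overlapped a Halo-Sox2M peak by at least 1 bp (28.2%, 19.0 to 39.5%), and 1 did so by at least 50% of both peaks. A Halo-Sox2M centre lay within 50 bp of 32 of them (45.1%, 34.0 to 56.6%).

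Within a library the places also kept their distances. Among Halo-Sox2 peaks, a pair of starts 94 to 98 bp apart was found in all 8 lower groups and in 11 of all 17, and a pair 14 to 16 bp apart in 6 of the 8. In the upper groups the commonest pair was 214 to 217 bp apart, in 6 of 9. Among Halo-Sox2M peaks, a pair 61 to 63 bp apart was found in 7 of the 8 lower groups and in none of the upper ones, where a pair 165 to 167 bp apart was found in 6 of 9. Other distances recurred in both parts, such as the 52 to 56 bp from a Halo-Sox2M to a Halo-Sox2 start, found in 6 of the 9 upper groups. Whether the parts differed was not tested.

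**Figure D5:**
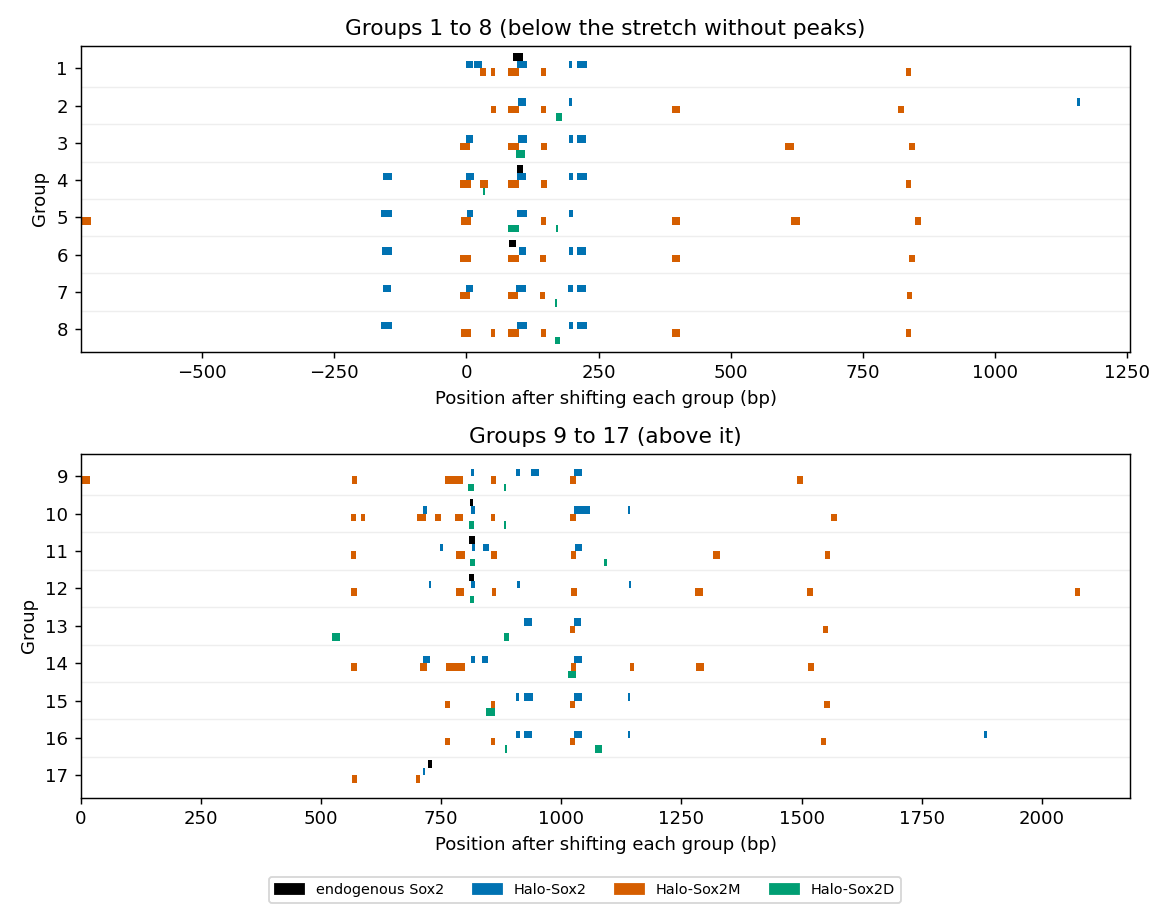
Each row is a group of peaks of the Rn4.5s array, shifted so that most same-library starts match those of an earlier group of its part (x axis in bp; colours are libraries; bars under 4 bp are drawn at that width). Peaks of Halo-Sox2 and Halo-Sox2M form columns within groups 1 to 8 and within groups 9 to 17, and groups 13 and 17 matched another group at 3 peaks only. The shifts were chosen on these same peaks, so the columns come in part from the alignment.

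In 4 consecutive upper groups peaks of the wild-type and truncated proteins ended within 4 bp of each other. In group 11 a Halo-Sox2 peak (47748603 to 47748609), an endogenous Sox2 peak (47748597 to 47748609) and a Halo-Sox2D peak (47748598 to 47748609) shared their upper end. In group 12 the upper ends were 47752943, 47752942 and 47752942, and in group 10 they were 47744250, 47744246 and 47744248. Group 9 had Halo-Sox2 and Halo-Sox2D ends at 47739989 and no endogenous Sox2 peak. At all 4 places the nearest Halo-Sox2M peak below ended 15 or 16 bases before the Halo-Sox2 peak began. In lower group 3 the Halo-Sox2 and Halo-Sox2D ends (47663780 and 47663777) also lay 3 bp apart, but there a Halo-Sox2M peak (47663746 to 47663765) overlapped both. In groups 1 and 4 the endogenous Sox2 peak ended 6 bp below the Halo-Sox2 peak, at 47655113 and 47668109, and a Halo-Sox2M peak overlapped both there too. In the other groups no endogenous Sox2 or Halo-Sox2D peak ended within 6 bp of a Halo-Sox2 end. Among them were upper groups 13 to 16, which held both Halo-Sox2 and Halo-Sox2D peaks. In group 6 the endogenous Sox2 peak (47676730 to 47676742) lay inside a Halo-Sox2M peak (47676728 to 47676747). Of the 9 endogenous Sox2 peaks in the window, 5 overlapped a Halo-Sox2 peak (55.6%, 26.7 to 81.1%), 3 a Halo-Sox2M peak and 3 a Halo-Sox2D peak (33.3%, 12.1 to 64.6%, each). Of the 22 Halo-Sox2D peaks, 8 overlapped a Halo-Sox2 peak (36.4%, 19.7 to 57.0%) and 4 a Halo-Sox2M peak (18.2%, 7.31 to 38.5%).

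Halo-Sox2D peaks also kept a distance from those of Halo-Sox2M: a start 26 to 30 bp above a Halo-Sox2M start was found in 9 of the 14 groups with both. For endogenous Sox2, the commonest distance from a Halo-Sox2M start was -47 to -43 bp, that is, below it, in 4 of its 7 groups.

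By distance from the shared 300-base window, units could be placed without using the peaks to align them. The peaks compared were still picked by a distance that recurred among these same peaks. The Halo-Sox2M peak that was followed by another 61 to 63 bp higher started 1044 bp above the end of the window in the unit of Gm40369, 1105 bp above it for Gm40367, 1097 bp for Gm36327 and 1093 bp for Gm40364. Among these units the distance was the shortest in that of Gm40369, which holds the annotated Rn4.5s. The Halo-Sox2 peak next to that Halo-Sox2M peak started at 1061, 1123, 1117 and 1109 bp. Both libraries were nearer to the window in the Gm40369 unit than in those of Gm40367, Gm36327 and Gm40364, while their distance from each other varied by a few bases. The unit of Gm52861 lacked a Halo-Sox2M pair 61 to 63 bp apart and was left out of this comparison. Halo-Sox2M peaks started there at 1044 and 1064 bp, among others, and a Halo-Sox2 peak at 1097 bp. A start at 1044 bp was thus not particular to the Gm40369 unit.

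Because of these predicted genes, peaks of the array are also peaks inside gene models. Gm40363 held 6 Halo-Sox2M and 5 Halo-Sox2 peaks, Gm40365 held 6 and 4, Gm40369 held 5 and 6, and Gm40367 and Gm36327 each held 5 and 4. Gm40364 held 4 and 5, and the non-coding Gm52861 held 15 and 9. None of the 4 Rn4.5s pseudogenes elsewhere in the genome had a peak of any library within 500 bp. Of all RefSeq genes, between 1.15% (Halo-Sox2M) and 14.1% (Halo-Sox2D) had one, depending on the library. With 4 pseudogenes nothing is read from this absence.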

How the data were processed

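The authors deposited 1 list of peak coordinates per library (chromosome, start, end), with no score, height or read number. Bowtie2 and mm10 were used, per the submitters' processing notes. The peak caller, its threshold and the handling of reads that match several places are, in the sources used here, not given. Starts were read as counted from 0 and are printed counted from 1. Gene models (49997) were those of RefSeq on GRCm38.p6, in a table without strand, and sequences those of its promoter windows. No 5S or Rn4.5s sequence was used here. A 5S copy was an rRNA gene or pseudogene of 100 to 130 bases in the window, and a peak belonged to the nearest copy within 500 bp. Shares carry 95% Wilson intervals and ratios exact binomial ones (scipy 1.17.1, Python 3.11.15, numpy 2.4.6, pandas 2.3.3). Both cover counting error only. Peaks of neighbouring copies are not independent. With 1 library per group no test was run. The steps were checked on simulated data. The windows, members and lists were chosen with earlier results of these data known, and the classes, groups and distances were drawn after the peak positions were seen. Named by rule were, per library, the 3 copies with most peaks (ties by position), any repeat gene with a peak of every library of its window, and protein-coding genes that held a peak, of which 1 is not reported here; others were named after their values were seen. Alternatives were merged peaks, other windows, overlap criteria and gene distances, and other gaps and tolerances.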

Additional observations from a re-analysis of the deposited data

How the results depend on the processing

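Of 90 values under other settings, 73 stayed within the interval of the reported value or, for counts and spacings, within 1.5 times of it. All 18 with overlapping or touching peaks merged did so, although at 5S merging changed no count. For a library with 2 peaks the interval reached 65.8%, so a move from 0 to 50% still fell within it. With trimmed windows, 7 of 10 values did not stay within these limits. Trimming the windows to the annotated repeat genes and 2 kb around them left 0 endogenous Sox2 and 1 Halo-Sox2D peaks at 5S. At Rn4.5s, with its single annotated gene, it left 1 peak of endogenous Sox2, 6 of Halo-Sox2, 5 of Halo-Sox2M and 0 of Halo-Sox2D, and a ratio of Halo-Sox2M to Halo-Sox2 of 0.833. Widening by 100 kb gave 6 endogenous Sox2 and 5 Halo-Sox2D peaks at 5S. All (100%) of the Halo-Sox2M and Halo-Sox2 peaks at 5S lay in a gene or within 50 bp of it, and 0 copies had a Halo-Sox2 centre inside. At Rn4.5s, overlap with any other library was 11.3% of Halo-Sox2 and 4.44% of Halo-Sox2M peaks at a reciprocal 50%, and 59.2%, 51.1% and 86.4% of Halo-Sox2, Halo-Sox2M and Halo-Sox2D peaks for centres within 50 bp, against 35.2%, 25.6% and 45.5% at 1 bp. Chosen after seeing the data, a smaller and a larger gap both gave 17 groups and 6 recurring 5S places, and a narrower and a wider match tolerance gave median shifts of 4335 and 4328 bp. Without scores in the lists, the planned stricter threshold could not be run. No paired analysis was possible because each group has 1 library. Depth is unknown, so the absence of a peak cannot be told apart from too few reads or a strict threshold.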

Other observations

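A few peaks of the windows lay away from the repeats. In the 5S window the endogenous Sox2 list had a peak at 123668864 to 123668880, outside any annotated gene. Halo-Sox2D had a peak at 123688023 to 123688029, also outside genes. Gas8, Dbndd1 and Afg3l1, the protein-coding genes below the array, held no peak of any library inside the window. In the Rn4.5s window 1 endogenous Sox2 peak (47788131 to 47788139) lay inside Rny1 (47788070 to 47788180), the gene of a Y RNA, which is a short polymerase III transcript too. The neighbouring Y RNA gene Rny3 (47781624 to 47781724) had no peak. The other peaks outside the groups were 1 each of endogenous Sox2 (47608473 to 47608487), Halo-Sox2D (47618554) and Halo-Sox2M (47650793 to 47650807, inside the non-coding Gm40371).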
